A study of Mus musculus with 2 samples.

Results

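Nuclear genes of oxidative phosphorylation were followed across tumour-infiltrating cells of mice bearing AB1-HA, a mouse mesothelioma line. The set was every gene symbol that starts with Ndufa, Ndufb, Ndufc, Ndufs, Ndufv, Uqcr, Atp5, Cox4i, Cox5, Cox6, Cox7 or Cox8, without the Ndufaf assembly factors, together with Sdha to Sdhd, Cyc1 and Cycs. It held 87 of the 31053 genes in the count matrices, under 86 symbols, because Atp5o stands under 2 gene identifiers. By role, 36 members belong to complex I, 4 to complex II, 9 to complex III, 20 to complex IV and 17 to complex V, and the last is the carrier cytochrome c. Ndufa4 and Ndufa4l2 were placed with complex IV, where the Ndufa4 protein sits. Over all cells kept, 83 members had at least 30 unique molecular identifiers (UMIs), and the other 4 members, Cox7b2, Cox8b, Cox8c and the first Atp5o identifier, had 1 to 29. Reads of 6 members whose exons overlap another gene, among them Ndufb8 and Atp5g2, are uncertain.

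Each of the 2 groups was 1 library: cells from mice given a control antibody, and cells from mice given an antibody against VEGF, the vascular endothelial growth factor. Both groups carried the same tumour line. Tumours had been minced and digested with collagenase and DNase, dead cells were removed by propidium iodide, and cells that stained for CD45 were sorted before droplet 3′ single-cell sequencing. The number of mice behind each library, the antibody doses and the times of treatment are not given in the sources used here. With 1 library per group there was no replicate error and no test. Intervals below are 95% intervals that cover counting error only, and a difference between libraries describes these 2 libraries.

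The respiratory chain passes electrons from NADH through complex I, or from succinate through complex II, to complex III, then by cytochrome c to complex IV, which reduces oxygen. The protons pumped on the way drive ATP synthase, complex V. Complexes I, III, IV and V each combine subunits encoded in the nucleus with subunits encoded in mitochondrial DNA, while complex II is wholly nuclear. Osteoclasts, the bone-resorbing cells of the macrophage lineage that express Acp5 and Ctsk, are known to be rich in mitochondria, and cells short of oxygen are known to shift towards glycolysis through the HIF factors. A few subunits of complex IV come in more than 1 isoform, of which Cox4i2 and Ndufa4l2 are known from other cell types as induced by low oxygen.

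The matrices held 11687 control and 8825 anti-VEGF barcodes, of which 10805 and 8159 passed the cell filters, with a median of 18265 and 22503 UMIs per cell. The libraries shared 35 barcode sequences, 29 of them kept in both. Cells were put in classes by marker genes, and levels are a gene's UMIs summed over a class and scaled to a common total (CPM), not scaled to transcript length. The 5 classes used most were cells high in Acp5 and Ctsk (1634 control and 859 anti-VEGF cells), cycling (1193 and 626), hypoxia-gene high (246 and 1134), resident-like (1056 and 383) and other macrophage-like cells (2965 and 2004). With monocyte-like cells (72 and 95) they make up the macrophage lineage here, 7166 and 5101 cells. Leading genes of the Acp5 Ctsk high cells in both libraries included the gate genes Acp5 and Ctsk, whose place there follows from the gate. Beside them stood Mmp9, Oscar and Ocstamp, genes known from osteoclasts, and others such as Mt3, Rufy4 and Coq8a. Their 6 check markers summed to 6364 and 8688 CPM, against 326 and 220.1 in other macrophage-like cells. A further 350 and 520 cells expressed collagen genes, and a Ptprc UMI, the transcript of CD45, was seen in only 4.0% and 7.1% of them, against 82.5% and 92.7% of other macrophage-like cells, at medians of 23075 and 33018, and 19812 and 22916, UMIs per cell. They do not match the CD45+ label. These classes are ranges of marker level, not cell types. In the control library 162 cells lay just inside the Acp5 Ctsk gate (within 25% of it) and 53 just outside, and for the hypoxia gate 99 and 143; the anti-VEGF numbers were 57 and 15, and 331 and 338.

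Summed over all members, the nuclear respiratory genes took between 2.02 and 5.39% of the UMIs of the 6 main classes, and the classes stood in nearly the same order in both libraries. Acp5 Ctsk high cells were far above the rest, at 53931 CPM in the control and 50127 CPM in the anti-VEGF library. Other macrophage-like cells had 28255 and 25127 CPM, cycling cells 27336 and 25153 CPM, and resident-like cells 24260 and 22549 CPM. Collagen-expressing cells lay among them, at 25343 and 22692 CPM. Hypoxia-gene high cells were lowest of these 6 classes, at 20957 and 20168 CPM. The smaller monocyte-like class (72 and 95 cells), which is not among the 6, lay close to them, at 21826 and 20183 CPM. A low sum was thus not particular to hypoxia-gene high cells. The highest class stood 2.57-fold over the lowest in the control and 2.49-fold in the anti-VEGF library. Cycling and other macrophage-like cells lay close together. Other macrophage-like cells were higher in the control library. In the anti-VEGF library the intervals of the 2 classes overlapped (25088 to 25218 CPM in cycling and 25084 to 25170 CPM in other macrophage-like cells), so their order there is not settled.

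**Figure D1:**
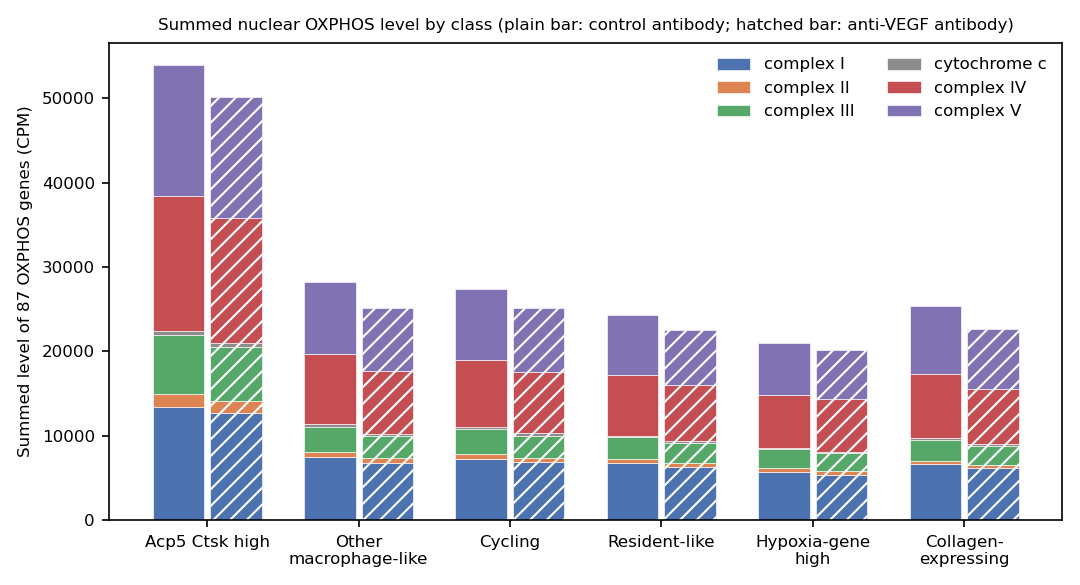
Summed level of the nuclear oxidative phosphorylation genes in CPM (vertical axis, from 0) for 6 cell classes (horizontal axis), stacked by respiratory complex; plain bars are the control library and hatched bars the anti-VEGF library. Acp5 Ctsk high cells stand at 53931 and 50127 CPM, above all other classes, and hypoxia-gene high cells are lowest at 20957 and 20168 CPM.

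Among 82 members with enough counts, 78 were highest in Acp5 Ctsk high cells in both libraries. In both, 38 were lowest in hypoxia-gene high and 23 in collagen-expressing cells. The shares of all genes highest or lowest in each class were not counted, so these numbers stand without a background. The small lymphoid and dendritic classes, with 9 to 50 cells each, ranged from 14994 to 26628 CPM. Neutrophil-like cells (49 and 235), which are known to rely on glycolysis, had the lowest sums of all, 7619 and 11163 CPM, at a median of only 2387 and 2170 UMIs per cell. In the anti-VEGF library 9 of those cells had at least 5000 UMIs and 27267 CPM, with 6929 CPM of Acp5 and Ctsk, and the other 226 had 6356 CPM.

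Acp5 Ctsk high cells carried more of nearly every nuclear respiratory transcript than other macrophage-like cells of the same library. The sum was 1.91-fold (1.90 to 1.91) higher in the control and 1.99-fold higher in the anti-VEGF library. The median log2 ratio of the members was 0.90 and 0.97, with all genes at -0.10 and -0.07. A member is called higher here when it was at least 25% higher on the scale of CPM + 1, and called lower when it was at 0.8 of the other level or less. In the control library 79 of 82 members were called higher, where 23.2% of all genes tested were, and in the anti-VEGF library 77 of 82 were, where 23.7% of all genes were. Called lower were 2 members in each library, Cox4i2 and Cox6a2 both times, against 33.6% and 32.3% of all genes. The excess was not even: complex II was 2.52- and 2.69-fold higher and complex III 2.33- and 2.45-fold, cytochrome c 1.92- and 2.27-fold, complex IV 1.91- and 1.98-fold, complex V 1.82- and 1.91-fold, and complex I 1.79- and 1.86-fold.

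Succinate dehydrogenase, complex II, joins the tricarboxylic acid (TCA) cycle to the chain, and its 4 subunits were all above the members' median in both libraries. Sdha, the flavoprotein that oxidises succinate, was at 106 CPM in other macrophage-like and 313 CPM in Acp5 Ctsk high control cells, and at 93.3 and 277 CPM in the anti-VEGF library (log2 ratio 1.55 and 1.56). Sdhb, the iron-sulphur subunit, was at 218 and 570.0 CPM, and at 179.5 and 526 CPM (1.38 and 1.54). The membrane anchors followed, Sdhd with log2 ratios of 1.27 and 1.37 and Sdhc with 1.13 and 1.15. All 4 had a log2 ratio above 1 in both libraries.

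In complex III all 9 subunits were called higher in both libraries. Cyc1, the cytochrome c1 that hands electrons to cytochrome c, had the largest ratio of the complex, from 187 to 601 CPM in control cells and from 147 to 533 CPM in anti-VEGF cells (1.68 and 1.86). The core subunit Uqcrc2 (1.49 and 1.61) and the small subunit Uqcr10 (1.46 and 1.60) came next, both chosen here after their values were seen. The subunit with the highest level over the macrophage lineage, Uqcrh, was at 597 and 1285 CPM in the control and 559 and 1235 CPM in the anti-VEGF library. Uqcrq, a subunit near the ubiquinone site, had the smallest ratio, 0.90 and 0.92. Cycs, cytochrome c itself, was at 294 and 566 CPM, and 238 and 539 CPM (0.94 and 1.18).

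Complex I held both large and small ratios. All 36 subunits were called higher in the control library and 35 in the anti-VEGF library, with medians of 0.80 and 0.83. At the top was Ndufs1, the large iron-sulphur subunit of the electron-input arm, at 46.5 and 122 CPM in the control and 38.5 and 106 CPM in the anti-VEGF library (1.37 and 1.44, chosen after its values were seen). Ndufab1, the mitochondrial acyl carrier protein that is also a complex I subunit, was at 252 and 561 CPM, and 225 and 561 CPM (1.15 and 1.32). At the other end Ndufv3, an accessory subunit of the same arm, was at 195 and 245 CPM, and 201 and 237 CPM (0.33 and 0.24). Ndufa7, also picked after its values were seen, was as low at 0.33 and 0.33. Ndufb8, the complex I subunit with the highest level over the macrophage lineage, had 0.66 and 0.71. Subunits of the same complex thus differed widely in their ratios, and in the same direction in both libraries.

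In complex IV 13 of 16 members were called higher in each library. The most abundant in other macrophage-like cells, Cox8a and Cox4i1, were at 1251 and 1101 CPM in other macrophage-like and at 2337 and 2266 CPM in Acp5 Ctsk high control cells. In the anti-VEGF library the same pair was at 1121 and 1089 CPM, and at 2191 and 2301 CPM. Ndufa4 had one of the largest ratios (1.37 and 1.57), from 629 to 1633 CPM and from 466 to 1383 CPM. Cox7a1, the heart and muscle isoform of subunit 7a, exceeded it in the control library, at 18.1 and 61.9 CPM there, and 19.0 and 51.5 CPM in the anti-VEGF library (1.72 and 1.39). Cox7a2l, which joins complexes III and IV into a supercomplex, had 0.97 and 0.97. Cox6b2, known as the testis isoform of subunit 6b, was nearly level in the control library (5.99 and 6.05 CPM).

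In complex V all 16 members were called higher in the control library and 15 in the anti-VEGF library. Atp5b, the catalytic beta subunit and chosen after its values were seen, was at 799.8 and 1848 CPM, and 671 and 1666 CPM (1.21 and 1.31). The subunit c ring is encoded by a trio of genes with the same mature protein, and their ratios differed. Atp5g3 had 1.11 and 1.24, Atp5g1 0.83 and 0.99, and Atp5g2 0.44 and 0.53, so the gene with the highest level of the trio outside these cells had the smallest ratio. These copies are near-identical in part, and reads between them are uncertain. Atp5l and Atp5k, small membrane subunits, had 0.89 and 0.94, and 0.83 and 0.87.

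**Figure D2:**
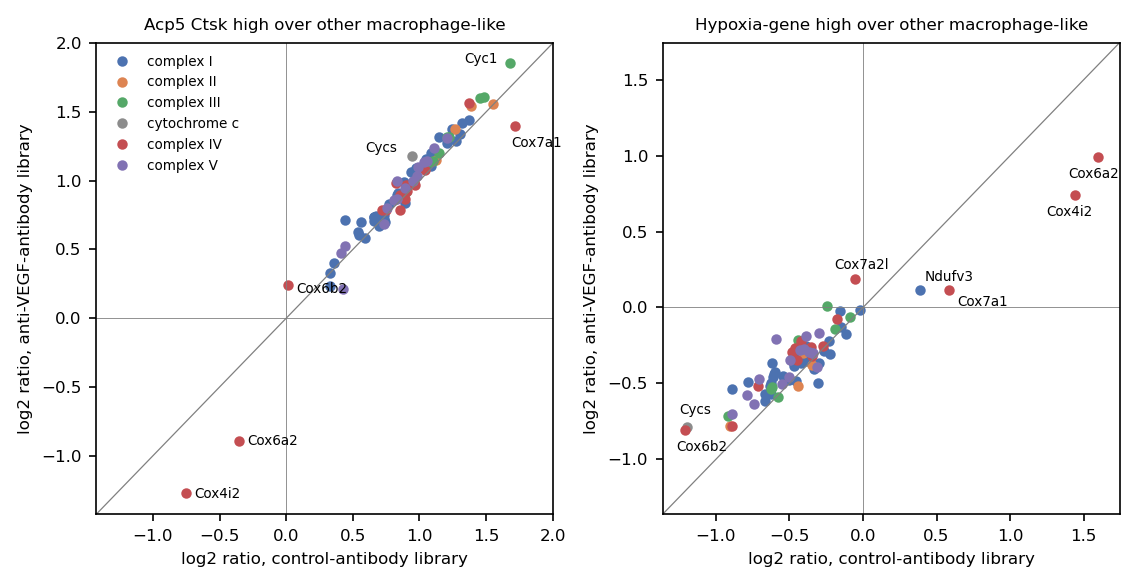
Log2 ratio of each member's CPM (plus 1) over other macrophage-like cells, in the control library (horizontal axis) and the anti-VEGF library (vertical axis), for Acp5 Ctsk high cells in one panel and hypoxia-gene high cells in the other; each point is 1 member, coloured by complex. In Acp5 Ctsk high cells 80 of 82 members lie above 0 in both libraries, and in hypoxia-gene high cells 76 of 82 lie below 0 in both.

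Other mitochondrial genes stood beside the members in Acp5 Ctsk high cells. All 13 subunits encoded in mitochondrial DNA were called higher in both libraries (medians 0.75 and 0.76). mt-Co1 was at 5236 and 9236 CPM in the control, and mt-Nd1 at 2051 and 2949 CPM. Of 16 TCA cycle genes 15 and 16 were called higher (medians 1.11 and 1.26), among them Mdh2, the mitochondrial malate dehydrogenase, at 449 and 1381 CPM in the control and 369 and 1244 CPM in the anti-VEGF library. Of 41 mitochondrial ribosomal proteins 35 were higher in each, 17 and 21 of them called, with smaller medians of 0.29 and 0.38. Ppargc1b, a coactivator of mitochondrial genes known from osteoclasts, was at 16.7 and 101 CPM, and 10.3 and 92.2 CPM, and its nuclear receptor partner Esrra had log2 ratios of 1.32 and 1.23. Glycolysis genes had medians of -0.32 and -0.39.

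The 9 macrophage markers summed to 3812 and 3147 CPM in Acp5 Ctsk high cells, against 12706 and 10617 CPM in other macrophage-like cells, with none at 0. Acp5 Ctsk high cells needed no minimum of macrophage markers, while the other macrophage classes needed 6 of 9. The part of this rule in the marker sums and in the number of shallow cells was not tested. Cells under 5000 UMIs were common in this class (621 of 1634 and 130 of 859). They carried 59434 and 56426 CPM of the members, and the deeper cells 53743 and 50082 CPM. Subunits encoded in mitochondrial DNA were at 19413 and 22830 CPM in the shallow and at 57219 and 55966 CPM in the deeper cells. The part of depth in these levels was not tested, and the deeper cells alone were 1.90- and 1.99-fold above other macrophage-like cells of that depth.

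Within the macrophage lineage the members also followed the level of Acp5 and Ctsk across the gate. Over 8 bins of summed Acp5 and Ctsk, among cells with at least 5000 UMIs that were neither cycling nor monocyte-like, the members went from 25098 to 60581 CPM in the control and from 22517 to 57852 CPM in the anti-VEGF library. Each bin was higher than the one before in both libraries. The gate asked for 32 per 10000 UMIs of each gene, not of their sum, so the bin that starts at a sum of 32 also lay below it. The bins of 16 to 32 per 10000 UMIs were at 31094 and 25919 CPM, and the bins that start at 32 at 37476 and 30950 CPM. The bins after these, the first that could hold gated cells, were at 42773 and 36883 CPM. The anti-VEGF library was lower in each bin, and the rise began in bins below the gate.

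Hypoxia-gene high macrophage-like cells, gated on Adm, Ndrg1, Ankrd37, Bnip3, Slc2a1 and Egln3, carried less of most nuclear respiratory transcripts than other macrophage-like cells. The sum was 0.742-fold (0.737 to 0.746) in the control and 0.803-fold (0.80 to 0.81) in the anti-VEGF library. The median log2 ratio of the members was -0.43 and -0.35, with all genes at -0.20 and -0.16. Called lower were 61 of 82 members in the control library, where 40.0% of all genes were, and 44 of 82 in the anti-VEGF library, where 31.6% of all genes were. Of these, 41 members were called lower in both, and the share of all genes called lower in both was not counted. Called higher were 4 members in the control library, against 15% of all genes, and 2 in the anti-VEGF library, against 11.3%. By complex, cytochrome c was at 0.435- and 0.579-fold, complex II at 0.680- and 0.705-fold, complex V at 0.715- and 0.778-fold, complex IV at 0.754- and 0.836-fold, complex I at 0.766- and 0.795-fold, and complex III at 0.766- and 0.839-fold.

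The mobile carrier was among the members with the lowest level against other macrophage-like cells. Cycs was at 294 CPM in other macrophage-like and 128.1 CPM in hypoxia-gene high control cells, and at 238 and 138 CPM in the anti-VEGF library (-1.19 and -0.78). Its docking partner Cyc1 was at 187 and 98.6 CPM, and 147 and 89.0 CPM (-0.91 and -0.71). Uqcrq and Uqcrh of the same complex were closer to level, at -0.09 and -0.06, and -0.24 and 0.01. In complex II the subunits separated, with Sdhb at -0.91 and -0.78 and Sdha, Sdhc and Sdhd between -0.52 and -0.30 in both libraries.

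In complex I, 26 and 24 of 36 subunits were called lower. Ndufab1 was at 252 and 164 CPM in the control and 225 and 174 CPM in the anti-VEGF library (-0.62 and -0.37). Ndufv3 was above 0 in both, and called in the control library only, 195 and 255 CPM, and 201 and 219 CPM (0.39 and 0.12). It was the only complex I subunit higher in both libraries with this scaling. TMM scaling raised every gene by 0.16 on the log2 scale in this comparison in each library, so members less than that below 0, such as Ndufa7 at -0.02 and -0.02, change sign with it. In complex V, 14 and 8 of 16 were called lower, and the subunit c genes again differed: Atp5g1 -0.89 and -0.70, Atp5g3 -0.79 and -0.58, Atp5g2 -0.30 and -0.17. Atp5g2 again had the smallest difference. In complex IV, 10 and 4 of 16 were called lower, the latter a smaller share than the 31.6% of all genes, among them Ndufa4 at 629 and 339 CPM, and 466 and 271 CPM (-0.89 and -0.78). Cox7a2l was near level, -0.05 and 0.19. The members above 0 in both libraries were Cox4i2, Cox6a2 and Cox7a1 of complex IV, described below, and Ndufv3, of which Cox4i2 and Cox6a2 were called higher in both.

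Companion lists in hypoxia-gene high cells were as follows. Of the 13 subunits encoded in mitochondrial DNA, 7 and 5 were called lower, against 40.0% and 31.6% of all genes (medians -0.37 and -0.25), while mt-Co1 was higher, 5236 and 6011 CPM, and 6322 and 6948 CPM. TCA cycle genes were called lower 16 and 13 times of 16, Idh3a most, from 89.7 to 34.4 CPM and from 66.5 to 31.1 CPM. All 41 mitochondrial ribosomal proteins were lower in both libraries (medians -0.53 and -0.46). Ppargc1b was at 16.7 and 3.23 CPM, and 10.3 and 3.86 CPM. The 16 glycolysis genes measured were all called higher (medians 1.20 and 0.72), and of these Slc2a1 was itself a gate gene. A CPM value is a share of the cell's RNA, so a lower share and a larger total of other transcripts cannot be told apart.

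The members also stood in order along the hypoxia genes on both sides of the gate. Among macrophage-lineage cells with at least 5000 UMIs, without Acp5 Ctsk high, cycling and monocyte-like cells, 7 bins of summed hypoxia genes went from 30072 down to 18449 CPM in the control and from 29594 down to 19063 CPM in the anti-VEGF library. Each bin was lower than the one before it in both libraries. At a given bin the anti-VEGF library was at 0.952 to 1.03 times the control, so the difference between libraries within a bin was small beside the difference along the bins. Among Acp5 Ctsk high cells the control went from 55298 to 46801 CPM over 4 bins and the anti-VEGF library from 54176 to 41836 CPM over 5.

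**Figure D3:**
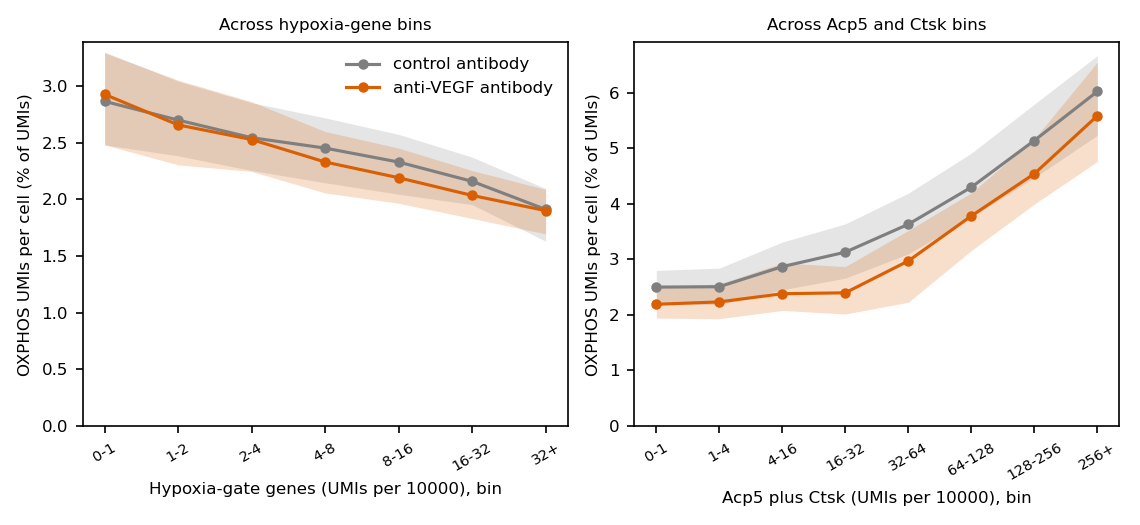
Percent of a cell's UMIs from the nuclear oxidative phosphorylation genes (vertical axis) by bins of hypoxia-gene level or of Acp5 and Ctsk level per 10000 UMIs (horizontal axes), for cells with at least 5000 UMIs; lines are medians over cells, bands the 25 to 75% range, and colours the 2 libraries. The control medians go down with the hypoxia genes, from 2.86 to 1.91%, with the anti-VEGF medians close to them, and go up with Acp5 and Ctsk, from 2.50 to 6.03%, with the anti-VEGF medians below them in every bin.

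Between the libraries the members had a lower sum with anti-VEGF in every macrophage class, by small amounts. In the macrophage lineage the sum was 0.882-fold (0.880 to 0.883), the median log2 ratio -0.18 with all genes at -0.07, and 78 of 83 members were lower, where 66.4% of all genes were. Called lower were 5 members, where 7.08% of all genes were called lower, and called higher were 2, where 6.05% of all genes were. With trimmed-mean (TMM) scaling the median was -0.09, and with each cell given the same weight it was -0.26. The number of members called, 7 in both directions together, depended on the processing: it was 29 with equal cell weights, 13 after thinning to 5000 UMIs, 12 with gates lowered and 11 with at most 5% mitochondrial UMIs.

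By class, the sum was at 0.889-fold in other macrophage-like, 0.895 in collagen-expressing, 0.920 in cycling, 0.929 in both Acp5 Ctsk high and resident-like, and 0.962 in hypoxia-gene high cells. Of 80 members measured in all 6 classes, 48 were lower in every class and 0 were higher in every class. The share of all genes lower in every class was not counted. In single classes the share of members lower ran from 74.4% (hypoxia-gene high) to 92.7% (other macrophage-like). Of all genes, 53.1% and 62.4% were lower in these 2 classes, the lowest and highest such shares. Members called lower numbered 5 of 82 in other macrophage-like cells (7.78% of all genes), 9 of 81 in collagen-expressing (13.7%), 3 of 82 in cycling (6.12%), 1 of 81 in Acp5 Ctsk high (6.25%), 2 of 82 in resident-like (9.92%) and 5 of 82 in hypoxia-gene high cells (13.0%). Called higher were 2, 1, 1, 0, 1 and 1 in the same order, against 6.52, 9.40, 7.62, 5.72, 6.74 and 12.5% of all genes. The hypoxia-gene high median, -0.07, was the smallest, and it turned to 0.02 when gate thresholds were doubled.

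A few subunits had larger differences than the rest and the same sign in all 6 classes. Ndufa4 was at 808 CPM in the control and 599 CPM in the anti-VEGF macrophage lineage, a ratio of 0.741 (0.735 to 0.748). Atp5k was at 394 and 291 CPM, a ratio of 0.738 (0.729 to 0.748). Ndufa3, a small membrane-arm subunit of complex I, was at 158 and 118 CPM, a ratio of 0.746 (0.732 to 0.761). Over the 6 classes their log2 ratios lay between -0.56 and -0.24 (Ndufa4), -0.51 and -0.29 (Atp5k) and -0.45 and -0.24 (Ndufa3), and they were the 3 members with the lowest medians. All 3 encode small proteins, each in a different complex.

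Of the other members called lower, Cyc1 was at 263 and 209 CPM (-0.33) and Cox6b2 at 5.85 and 4.01 CPM (-0.45). Complex II was at 0.847-fold, with log2 ratios of -0.27 for Sdhb, -0.26 for Sdha, -0.23 for Sdhc and -0.19 for Sdhd, and cytochrome c at 0.836-fold (334 and 279 CPM). Complexes V, III, IV and I were at 0.872, 0.877, 0.887 and 0.894-fold. Some members were close to level, with -0.04 for Uqcrq, -0.06 for Atp5g2 and 0.02 for Ndufv3. Cox4i1 was level too, at 1302 and 1281 CPM, as was Cox7a2l at 439 and 449 CPM. Only Cox4i2 and Cox6a2 were called higher.

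**Figure D4:**
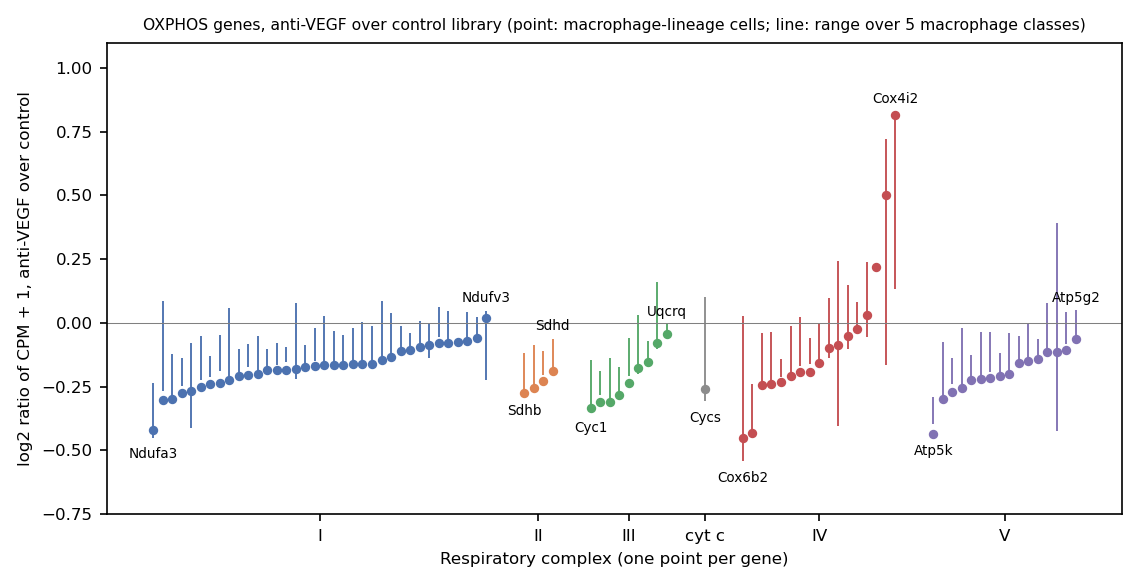
Log2 ratio of CPM (plus 1), anti-VEGF over control (vertical axis), for each member (horizontal axis, grouped by complex); points are the macrophage lineage and lines the range over its 5 main classes. Most points lie a little below 0 (median -0.18), Atp5k and Ndufa3 lie lowest in complexes V and I with their whole lines below 0, and Cox4i2 and Cox6a2 lie above it.

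Composition moved with this difference. Acp5 Ctsk high cells, the class with the highest sum, made up 15.1% of control and 10.5% of anti-VEGF cells kept. The hypoxia bins used next leave them out. Of the cells in those bins, 17.2% of control and 56.4% of anti-VEGF cells had at least 8 hypoxia-gene UMIs per 10000. Averaged over the bins by their cells, the members stood at 0.871-fold between libraries, and at 0.982-fold when the anti-VEGF bins were weighted by the control library's shares. Holding the 6 gated sub-classes at control shares brought the macrophage-lineage median to -0.12. Among Acp5 Ctsk high cells the corresponding ratios, over the 4 bins filled in both libraries, were 0.958 and 0.984. They leave out the anti-VEGF bin of 8 to 16 per 10000, with 75 cells at 41836 CPM. Beside the members, 10 of 13 subunits encoded in mitochondrial DNA were lower in the macrophage lineage, mt-Nd3 most (297 and 205 CPM), while mt-Co1 was higher (6071 and 7176 CPM). All 16 TCA cycle genes were lower (median -0.25), and all 16 glycolysis genes measured were higher (median 0.68), 15 of them called.

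Isoforms of complex IV had patterns over classes of their own. Cox4i2 was scarce beside its partner Cox4i1 everywhere: it made up 0.0710% (0.0525 to 0.0939) of the pair's UMIs in other macrophage-like control cells and 0.199% (0.164 to 0.239) in the anti-VEGF library, and 0.392% (0.236 to 0.612) and 0.415% (0.343 to 0.497) in hypoxia-gene high cells. In CPM it was at 0.783 and 2.17 in other macrophage-like cells (49 and 112 UMIs), 3.84 and 4.30 in hypoxia-gene high cells (19 and 116 UMIs), and 0.0582 and 0.310 in Acp5 Ctsk high cells (2 and 8 UMIs). The intervals of the hypoxia-gene high cells overlapped between libraries, and those of other macrophage-like cells did not. Monocyte-like cells of the anti-VEGF library had 20.3 CPM, 35 UMIs in 16 cells of which 11 lay in 1 cell, against 4 UMIs in the control.

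Cox6a2, the heart and muscle isoform of subunit 6a, was at 3.15 and 5.83 CPM in other macrophage-like, 11.5 and 12.6 CPM in hypoxia-gene high, 5.90 and 5.15 CPM in resident-like and 2.24 and 2.68 CPM in Acp5 Ctsk high cells. It was 5.13% (3.91 to 6.59) and 5.57% (5.0 to 6.17) of the pair with Cox6a1 in hypoxia-gene high cells, against 1.14% and 2.14% in other macrophage-like cells. Its level was far higher in a few cells of another kind. In the 26 Flt3 dendritic cell-like cells of the control library it was at 289 CPM, 144 UMIs in 6 cells, above Cox6a1 at 235 CPM, and in the 9 such anti-VEGF cells it had 0 UMIs, which allows up to 15.3 CPM. T cell-like cells had 0 UMIs in both libraries, which allows up to 7.64 and 5.42 CPM, at medians of 6206 and 8439 UMIs per cell.

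The cells rich in Cox6a2 carried genes of plasmacytoid dendritic cells. Of 20 control and 5 anti-VEGF cells with at least 10 Cox6a2 UMIs, 19 and 4 had a UMI of Siglech, and as many of Ccr9, both chosen after the values were seen. Siglech was seen in 0.361% and 0.0735% of all cells kept, and in 0 of the hypoxia-gene high cells of either library. Cells with at least 3 Siglech UMIs, 21 and 4 in number, held 41.6% and 6.55% of all Cox6a2 UMIs, at 676 and 1077 CPM of Cox6a2 beside 195 and 258 CPM of Cox6a1. Without cells that had Siglech, Cox6a2 in hypoxia-gene high and in anti-VEGF other macrophage-like cells was the same at 11.5, 12.6 and 5.83 CPM. In control macrophage-lineage cells it went from 4.16 to 3.03 CPM. Control resident-like cells went from 5.90 to 4.38 CPM, below the unchanged 5.15 CPM of the anti-VEGF library. Monocyte-like cells went from 66.8 to 0 CPM in the control and from 16.2 to 1.18 CPM in the anti-VEGF library.

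Cox7a1 took a larger share of its pair in Acp5 Ctsk high and in hypoxia-gene high cells than in other macrophage-like cells. It made up 4.97% (4.77 to 5.18) and 4.60% (4.36 to 4.85) of the pair with Cox7a2 in Acp5 Ctsk high cells, 5.69% (4.80 to 6.69) and 4.24% (3.91 to 4.60) in hypoxia-gene high cells, and 2.79% (2.63 to 2.95) and 3.27% (3.07 to 3.48) in other macrophage-like cells. In hypoxia-gene high cells its level was 27.7 and 20.7 CPM against 18.1 and 19.0 CPM in other macrophage-like cells, a ratio of 1.53 (1.27 to 1.82) in the control and 1.09 (0.979 to 1.21) in the anti-VEGF library, where the interval holds 1. The partner Cox7a2 was at 459 and 466 CPM against 632 and 561 CPM. Cox6b2 behaved differently, at 2.02 and 2.08 CPM in hypoxia-gene high and 5.99 and 4.38 CPM in other macrophage-like cells. In collagen-expressing control cells Cox6b2 had 0 UMIs, which allows up to 0.313 CPM.

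Ndufa4l2, the HIF-linked paralog of Ndufa4, had most of its UMIs in collagen-expressing cells, 7 UMIs (0.731 CPM, 0.294 to 1.51) in the control and 109 UMIs (6.02 CPM, 4.94 to 7.26) in the anti-VEGF library. However, 81 of the 109 UMIs lay in 1 cell. Without the top cell of each library the levels were 0.526 and 1.55 CPM. Hypoxia-gene high cells had 0 UMIs of it in control mice, which allows up to 0.606 CPM, and 14 UMIs in 7 of the 1134 anti-VEGF cells. Cox7b2, Cox8b and Cox8c, isoforms known from testis or muscle, had too few UMIs for any comparison.

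**Figure D5:**
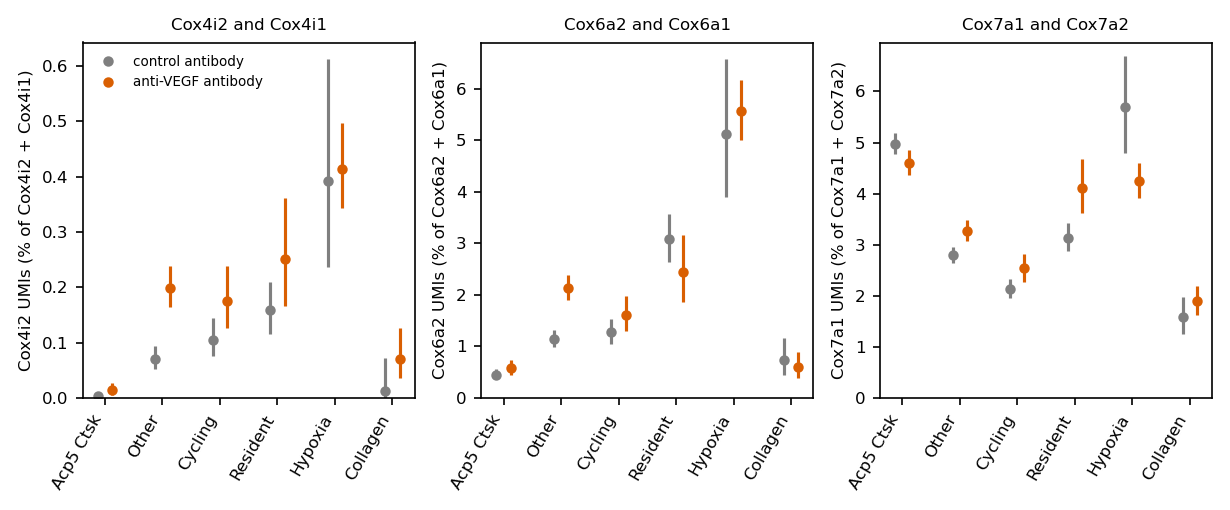
Share of the isoform pair's UMIs that came from Cox4i2, Cox6a2 or Cox7a1 (vertical axes, percent) in 6 cell classes (horizontal axes), with exact 95% Clopper-Pearson intervals for counting error; colours are the 2 libraries. Cox4i2 and Cox6a2 shares are highest in hypoxia-gene high cells (0.392 and 0.415%, 5.13 and 5.57%), and the Cox7a1 share is high both there and in Acp5 Ctsk high cells.

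Collagen-expressing cells, which lack CD45 transcripts for the most part, had their own mix of subunits. Their leading genes in both libraries included the gate genes Col3a1, Col1a1 and Col1a2, and Col6a1, Mgp, Efemp1 and Ogn. They also carried Msln at 108 and 118 CPM, a marker of mesothelial and mesothelioma cells. Other markers of such cells are not given here, and Msln alone does not name the class. Against other macrophage-like cells the sum was 0.897- and 0.903-fold and the median -0.30 and -0.27, with all genes at 0.12 and 0.15. Called lower were 40 of 82 members in the control (32% of all genes) and 33 of 83 in the anti-VEGF library (30.8%), and called higher 6 in each (40.5 and 42.0%). Complex II was lowest, at 0.594- and 0.683-fold, with Sdhb at 104 and 99.2 CPM. Atp5g3 was at 636 and 565 CPM, higher than in other macrophage-like cells (0.65 and 0.77), while Atp5g1 was lower (-0.57 and -0.38), so the subunit c genes were balanced differently there. TMM scaling would lower every gene of this comparison by 0.28 and 0.25 on the log2 scale, which leaves the sign of both as it is. Between the libraries Cox6c, named after its value was seen, had the lowest ratio, 1186 and 728 CPM, a ratio of 0.614 (0.599 to 0.630), and Ndufa4 and Atp5k followed (-0.56 and -0.51).

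Resident-like cells, gated on Selenop and Stab1, had 0.859- and 0.897-fold the sum of other macrophage-like cells. The members' medians were -0.19 and -0.13, with all genes at -0.002 and 0.013. Called lower were 13 and 12 of 82 members, where 16.6% and 16.2% of all genes were, so such calls were not more frequent among the members. In both libraries 9 were called lower, and the share of all genes called lower in both was not counted. Among the 9 were Cycs (-0.59 and -0.36), Sdhb (-0.50 and -0.38) and Cyc1 (-0.45 and -0.34). Called higher were 2 and 0 (17.5 and 18.3% of all genes). Cycling cells differed little, at 0.967- and 1.00-fold (medians -0.03 and 0.02). There 1 member was called lower in each library (10.5 and 11.4% of all genes), and 0 and 1 called higher (14.0 and 18.4%).

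Many members moved together between classes, and their promoters were read for the letters of known binding motifs. RefSeq promoter windows on GRCm38.p6 were matched for 69 of 87 members, or 68 genes. The 250 bases before the start were read on both strands, and a gene counted if any of its windows matched. The palindromic NRF1 motif was in 13 of 68 member genes (19.1%) and in 4.23% of all 27025 genes with a window. That background was not matched for base content or expression. The ETS letters CCGGAAG, read by factors such as GABPA, were in 12 (17.6%) and 7.83%. The hypoxia-response core, ACGTG or GCGTG, was in 36 (52.9%) and 41.5%, and the estrogen-related receptor letters TCAAGGTCA were in 1 (1.47%) and 0.422%. The NRF1 motif can overlap GCGTG on the other strand. A match describes letters only, not binding.

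Shown as examples are windows of some members that hold a match, each 5′ to 3′ on the gene's strand. Matches of 1 motif are in capitals (the hypoxia core in Cycs and Cox7a1, NRF1 in Cox6a1, ETS in Uqcr11). Uqcr11 was not among the members described above. Cycs was among the lowest members in hypoxia-gene high cells, and its window (chr6:50566570-50566819, minus strand) holds 3 hypoxia cores, overlapping in part. Whether such cores go with level was not tested. Ndufa7, near level in those cells, had 5 cores, and Ndufa4, also low there, had 0. Cox7a1, called higher in those cells in the control library only, has 1 in the stretch shown (chr7:30183921-30184143, plus strand), which ends 28 bases before the start. Cox6a1, the partner of Cox6a2, has 2 NRF1 matches (chr5:115348982-115349208, minus strand). Uqcr11, of complex III, has 1 ETS match (chr10:80406831-80407071, minus strand), and its window also holds 1 hypoxia core, left in lower case.
Cycs: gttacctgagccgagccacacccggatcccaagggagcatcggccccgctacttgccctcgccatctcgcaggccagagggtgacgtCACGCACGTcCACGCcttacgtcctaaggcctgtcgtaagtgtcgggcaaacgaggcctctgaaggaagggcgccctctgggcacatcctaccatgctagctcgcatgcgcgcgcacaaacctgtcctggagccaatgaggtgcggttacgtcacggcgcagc
Cox7a1: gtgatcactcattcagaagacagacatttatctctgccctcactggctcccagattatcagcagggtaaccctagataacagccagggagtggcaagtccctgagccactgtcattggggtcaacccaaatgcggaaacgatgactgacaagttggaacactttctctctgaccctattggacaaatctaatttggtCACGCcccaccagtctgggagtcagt
Cox6a1: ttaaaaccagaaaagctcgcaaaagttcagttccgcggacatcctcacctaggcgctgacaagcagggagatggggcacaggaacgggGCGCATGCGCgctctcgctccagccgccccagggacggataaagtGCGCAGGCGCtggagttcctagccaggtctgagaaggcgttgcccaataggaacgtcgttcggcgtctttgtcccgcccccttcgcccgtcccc
Uqcr11: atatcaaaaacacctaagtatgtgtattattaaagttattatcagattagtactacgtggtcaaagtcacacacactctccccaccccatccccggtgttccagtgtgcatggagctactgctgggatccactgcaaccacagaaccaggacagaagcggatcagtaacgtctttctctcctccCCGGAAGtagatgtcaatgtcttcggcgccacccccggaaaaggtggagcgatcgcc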

How the data were processed

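Both libraries were made with droplet 3′ single-cell chemistry, which counts transcripts by UMI near their 3′ end, so levels of different genes are not scaled to length. The deposited matrices hold raw UMI counts per gene and cell. The submitters' processing notes name Cell Ranger 3.0.2 and mm10 as what the authors used. Per the file headers, the software version was 3.1.0. With 1 library per group no p-value was computed.

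Barcodes were kept from 300 genes and 500 UMIs upwards if mitochondrial genes gave no more than 10% of their UMIs, 92.5% of barcodes in each library. Cells were put in classes by marker gates: T, NK and neutrophil-like cells by at least 3 of 6 markers, mature dendritic cell-like by 4 of 6, Flt3 dendritic cell-like by 2 of 5, collagen-expressing by collagen genes at 4 per 10000 UMIs, and macrophage-like by 6 of 9 markers. Acp5 Ctsk high cells had both genes at 32 per 10000 UMIs or more, with no macrophage marker required. Cycling and hypoxia-gene high cells were macrophage-like cells with their gene sums at 16. No doublet caller was run; cells with markers of more than 1 lineage were set apart as mixed and entered no comparison.

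Counts were summed per class and divided by the class total to give CPM. Log2 ratios used CPM + 1, for genes with at least 30 UMIs over both sums. Intervals are exact 95% Poisson, conditional binomial or Clopper-Pearson intervals. UMIs of 1 library are not replicates, so intervals and the limits from a count of 0 (3 counts) cover counting error only. The interval was tested on simulated data for 12704 genes between the libraries' other macrophage-like cells: it held 1 for 95.5% of unchanged genes, and left 1 out in the true direction for 80% of genes set 25% higher and 64% of genes set at 0.8 of the level. The simulated counts were Poisson, as the interval assumes, with no added spread between cells or libraries. The test thus checks the calculation, not how well the interval covers real counts.

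Members, gene lists and gates were chosen with earlier results of these data known. Members were named by role (isoforms and their partners, all of complex II, cytochromes, subunit c genes, Ndufab1, Cox7a2l) and, per complex, by highest level and by highest and lowest ratio between libraries; from other lists, the 2 highest and 2 lowest ratios. Others were named after their values were seen. Alternatives changed the cell filter, scaling, depth, cell weights, doublets, gates, pseudocount and minimum count. Analyses used Python 3.11.15, numpy 2.4.6, scipy 1.17.1, pandas 2.3.3 and matplotlib 3.10.9.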

Additional observations from a re-analysis of the deposited data

Results flagged for a closer look

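Atp5s, a factor linked to ATP synthase, had ratios on opposite sides of 1 between the libraries in different classes. Its log2 ratio of anti-VEGF over control was 0.39 in hypoxia-gene high cells, from 11 control and 87 anti-VEGF UMIs, a ratio of 1.45 (0.772 to 3.01). It was -0.42 in resident-like cells, from 125 and 33 UMIs, a ratio of 0.687 (0.454 to 1.02). Both intervals hold 1, and the difference between the classes was not tested.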

How the results depend on the processing

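Acp5 Ctsk high cells ranked highest and hypoxia-gene high cells lowest of 6 classes in both libraries in all 40 alternative values. The Acp5 Ctsk high median against other macrophage-like cells was 0.83 and 0.83 with at most 5% mitochondrial UMIs, 0.95 and 1.04 with a reduced total, 1.00 and 1.04 with TMM, 0.97 and 1.00 with equal cell weights, 0.80 and 0.83 with gates lowered and 1.05 and 1.13 with gates doubled, 0.94 in the control after thinning to 5000 UMIs, and 0.99 in the anti-VEGF library with at most 20% mitochondrial UMIs. The hypoxia-gene high median was -0.27 and -0.18 with TMM, and -0.57 in the control with gates doubled. TMM shifts every gene of a comparison alike, there by 0.16 in each library. Between libraries the median was -0.0945 in the macrophage lineage, -0.11 in other macrophage-like and -0.0365 in collagen-expressing cells with TMM. It was -0.26 in the lineage with equal cell weights and -0.12 at control sub-class shares, -0.17 in Acp5 Ctsk high cells with at most 5% mitochondrial UMIs, -0.25 in collagen-expressing cells after thinning, and -0.11 in other macrophage-like and -0.17 in collagen-expressing cells with gates lowered. In hypoxia-gene high cells it reversed to 0.0182 with gates doubled; the cause was not tested. Members called higher or lower, 7 in the lineage, numbered 11 with at most 5% mitochondrial UMIs, 13 after thinning, 29 with equal weights and 12 with gates lowered. In Acp5 Ctsk high cells, with 1, they numbered 6, 2, 6 and 2, 2 without cells of a second lineage, and 0 with gates doubled. They went from 6 to 10 in hypoxia-gene high and from 3 to 5 in resident-like cells with equal weights, and in resident-like cells to 1 and 6 with gates lowered and doubled. In other macrophage-like cells they went from 7 to 3 with gates lowered. In collagen-expressing cells they went from 10 to 22 after thinning, 22 with equal weights, 18 with gates lowered and 6 with gates doubled. Alternatives without a single large cell, without Siglech cells, with unthinned deep cells and with weighted bins were chosen after seeing the data. No paired analysis was possible because each group was 1 library.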
